A study of Drosophila melanogaster with 2 samples.

Results

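The weaker entries at coding promoters were those places near the starts of protein-coding genes where the pooled list of l(3)neo38 signal held an entry that did not reach the authors' thresholded list. The members were the entries of the pooled list on build dm6 that overlapped no thresholded interval by even 1 bp and whose summit, the position of highest signal the authors gave, lay within 500 bp of a transcript start of a protein-coding gene in the Ensembl annotation. Of 24568 weaker entries among the 30000 of the pooled list, 3170 met this rule, which is 12.9%. The comparison set was the 1141 of 3953 thresholded peaks that met the same distance rule, and the remaining 21398 weaker entries were the rest. The members were selected on measured values, since the thresholded list held the 3953 strongest entries of the pooled list, each with the same interval and signal. Signal and replicate matches are therefore given as descriptions with no test, as is every split of the members by them. Tests were kept to sequence and gene position, which the threshold did not use.

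The study was chromatin immunoprecipitation with sequencing (ChIP-seq) in whole Drosophila melanogaster embryos of 0 to 24 h, both sexes pooled, from a transgenic line that stably carries l(3)neo38 with a C-terminal GFP tag. Antibody to GFP was used on 2 biological replicates, which form 1 group. Whole embryos mix all cell types and stages, so an entry may come from any of them, and an untagged line was not analysed here.

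The l(3)neo38 gene encodes a zinc finger protein, a class whose fingers read short DNA words. Promoters of flies carry known words that other proteins read. DREF reads the DRE and M1BP reads motif 1, both typical of broadly active genes, while the TATA box and the Initiator place the start of transcription at more regulated genes. GAGA factor reads runs of GA and helps open developmental promoters. The irreproducible discovery rate (IDR) procedure that made the thresholded list compares the ranks of entries between replicates. Here the thresholded list was a plain cut on pooled signal, since 0 of the 3953 strongest pooled entries were weaker ones.

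The windows below show what lies under strong weaker summits, each reaching 50 bp to either side of the summit, on the plus strand of dm6, read from the reference genome. Capitals mark the named word on either strand. For each word the strongest member outside annotated untranslated regions was taken, and the first pair shows the C-rich word and the C run in 1 window, upstream of soti at chr3R:14382076-14382176, with a pooled signal of 139.3.
soti, C-rich word: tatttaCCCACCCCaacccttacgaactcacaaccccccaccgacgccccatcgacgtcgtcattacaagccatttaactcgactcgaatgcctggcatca
soti, C run: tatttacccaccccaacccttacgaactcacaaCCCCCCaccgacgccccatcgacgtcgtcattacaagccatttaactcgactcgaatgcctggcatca
The next windows hold the GAGA word upstream of oxt (chr3L:2262706-2262806, pooled signal 140.1), the GC box upstream of SK (chrX:5340069-5340169, 136.5) and the GATA word upstream of beat-Ia (chr2L:16049753-16049853, 138.7). These words differed in frequency from thresholded peaks.
oxt, GAGA: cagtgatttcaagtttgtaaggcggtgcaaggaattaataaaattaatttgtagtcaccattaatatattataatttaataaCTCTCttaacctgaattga
SK, GC box: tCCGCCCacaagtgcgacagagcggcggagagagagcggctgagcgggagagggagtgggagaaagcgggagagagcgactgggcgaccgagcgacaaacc
beat-Ia, GATA: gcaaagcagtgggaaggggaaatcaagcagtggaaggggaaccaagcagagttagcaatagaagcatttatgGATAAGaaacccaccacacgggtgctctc
Core promoter words, matched by letters alone, are shown by the DRE upstream of CG6495 (chr2L:10760975-10761075, pooled signal 131.8) and motif 1 upstream of glec (chr3R:21856280-21856380, 139.8). The TATA box word is shown upstream of Nepl19 (chr3R:28880250-28880350, 140.5), where the summit lay 178 bp from the start. Whether that word serves as a TATA box was not tested.
CG6495, DRE: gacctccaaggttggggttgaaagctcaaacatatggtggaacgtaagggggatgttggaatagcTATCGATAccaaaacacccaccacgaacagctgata
glec, motif 1: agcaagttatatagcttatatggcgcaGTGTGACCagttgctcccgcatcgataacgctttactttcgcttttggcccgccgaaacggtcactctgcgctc
Nepl19, TATA: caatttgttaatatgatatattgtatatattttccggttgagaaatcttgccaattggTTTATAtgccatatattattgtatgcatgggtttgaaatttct
The strongest member of all, upstream of Mnr (chrX:21281227-21281327, pooled signal 140.7), has no capitals because it held no C run, C-rich word or GAGA word. The thresholded peak upstream of erm (chr2L:1970594-1970694, pooled signal 1905) is set beside it, with the C-rich word in capitals.
Mnr: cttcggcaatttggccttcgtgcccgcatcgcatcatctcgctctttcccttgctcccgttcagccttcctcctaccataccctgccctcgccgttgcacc
erm, thresholded: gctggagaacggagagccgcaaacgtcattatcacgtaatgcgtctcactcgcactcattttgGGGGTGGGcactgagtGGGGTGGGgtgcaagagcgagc
Base composition varied widely at almost the same signal, since G and C made up 60.4% of the Mnr window and 26.7% of the Nepl19 window.

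The pooled signal of the 3170 members ran between 30.9 and 140.7, with a median of 57.2. Thresholded peaks at coding promoters ran between 140.8 and 1905, with a median of 229.5, and the other weaker entries had a median of 48.3. Signal is the peak strength the authors deposited, and no header or label states how it was normalized, so it ranks entries only within 1 list. The −log10 q-value deposited by the authors ran between 0.357 and 3.96 at members and was 3.96 at all thresholded coding-promoter peaks. By its deposited name the pooled list holds peaks and background given to the IDR procedure, so a member need not be a bound place. All but 6 members, 3164 in number, were 460 bp wide. No read counts were in the lists, so the depth behind each entry is unknown. Intervals given below cover counting error over entries or genes only.

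The threshold cut the list without a gap in signal. The 5 coding-promoter peaks just inside it lay at kirre with 140.8, CG6398 with 141.0, and Gclc, bwa and Dys with 141.1 to 141.2. The 5 members just outside lay at Mnr and Dyrk2 with 140.7, Nepl19 with 140.5, and oxt and ben with 140.1 each. These genes have varied roles: kirre encodes an adhesion protein of muscle founder cells, Gclc makes glutathione precursor, Dys is dystrophin, Dyrk2 is a protein kinase, oxt a xylosyltransferase and ben a ubiquitin-conjugating enzyme.

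Among all weaker entries the share at coding promoters rose with signal, at 9.28% (8.16 to 10.5, exact binomial 95% interval) in bin 1 of 10, the weakest, and 19.2% (17.6 to 20.8) in bin 10, the strongest. In the thresholded list it was 28.9% (27.5 to 30.3). Bins 9 and 10 did not differ beyond their intervals, with 18.3% (16.8 to 19.9) in bin 9.

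The 20 strongest members had pooled ranks of 3954 to 4036 and were not all matched in both replicate lists. Of these 20, 18 had a summit within 100 bp in the list of replicate 1, 16 in that of replicate 2 and 15 in both. At glec, a cell surface adhesion gene of the embryonic nervous system, the replicate signals were 58.7 in replicate 1 and 77.4 in replicate 2. At wdb, a regulatory subunit of phosphatase PP2A, they were 66.6 and 65.1. At vg, the wing selector gene vestigial, they were 67.7 and 62.7. All 3 had a matched summit in both lists.

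Other members of the same pooled signal were ranked far apart in the replicate lists or matched in 1 of them. Dyrk2 had 114.7 in replicate 1 and 24.6 in replicate 2, where its rank was 20564. CG32982 had 120.6 and 25.7, and CG2004 had 115.6 and 27.8. The retromer subunit gene Vps26 had 118.7 in replicate 1 and no matched summit in replicate 2. In the other direction, Eip63E, a cyclin-dependent kinase gene, had no matched summit in replicate 1 and 65.9 in replicate 2. The signal scales of the replicate lists were not shown to be equal, so ranks are the safer reading.

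Across all members, 68.1% (66.4 to 69.7) had a summit within 100 bp in the list of replicate 1 and 56.7% (54.9 to 58.4) in that of replicate 2. Both lists held 35.6%, replicate 1 alone 32.4% (1028 members), replicate 2 alone 21.0% (667) and neither 10.9% (345). At thresholded coding-promoter peaks 88.6% were in both, and at the other weaker entries 36.4%. Agreement followed signal, with 3.00% in both lists in bin 1 of members, the weakest of 5 equal bins of pooled signal, 36.4% in bin 3 and 68.8% in bin 5, the strongest. These shares depended on the match distance, at 22.0% in both lists within 50 bp and 49.8% within 200 bp.

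**Figure D1:**
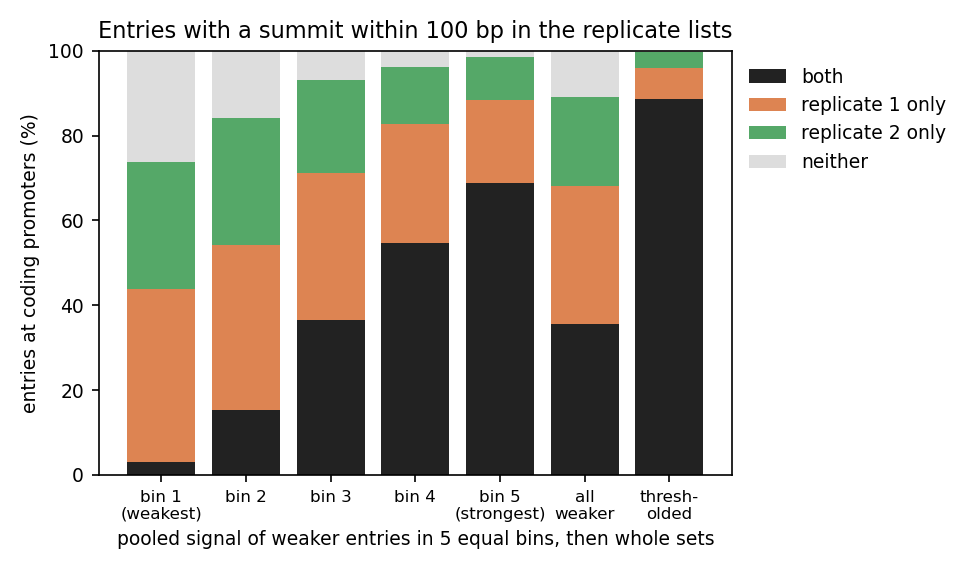
Share (%) of coding-promoter entries whose summit had a summit within 100 bp in both replicate lists, in 1 or in neither, for weaker entries in 5 bins of pooled signal (634 each), all 3170 weaker entries and 1141 thresholded peaks. The share in both lists is 3.00% in bin 1, 68.8% in bin 5 and 88.6% at thresholded peaks.

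A place among the 3953 strongest entries of 1 replicate was held by 127 members (4.01%) in replicate 1 and by 107 (3.38%) in replicate 2. At thresholded coding-promoter peaks these shares were 84.0% and 72.5%. No member, 0, held such a place in both. Members lie outside the 3953 strongest pooled entries by choice, so low counts here follow in part from the rule. The best ranked in replicate 1 was Rme-8, an endocytic chaperone gene, at rank 1586 there and 8332 in replicate 2. The best ranked in replicate 2 was PhKgamma, a phosphorylase kinase gene, at rank 1638 there and 23120 in replicate 1. Next in replicate 2 stood brat, a translational repressor of neural stem cell progeny, at rank 1871, with rank 9062 in replicate 1. Diap1, the inhibitor of apoptosis, had rank 2136 in replicate 2 and no match in replicate 1.

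Members lay more often past the start, and more often within 100 bp of it, than thresholded peaks. The median signed position was 46 bp upstream (-46) at members and 112 bp upstream (-112) at thresholded peaks. Summits lay upstream of the nearest coding start at 57.6% of members (55.9 to 59.4) and 70.4% of thresholded peaks (67.6 to 73.0), a difference of -12.74 percentage points (two-sided Fisher's exact test, adjusted p = 2.6e-13 over 11 features). A position within 100 bp of the start was held by 33.1% of members (31.5 to 34.8) and 26.9% of thresholded peaks (24.4 to 29.6), a difference of 6.19 points (Fisher's exact test, adjusted p = 0.000602). Of the 11 features, 1 (9.09%) was lower at members and 1 (9.09%) was higher. The third quartile of distance ran the other way, at 307 bp at members and 289 bp at thresholded peaks. More than 250 bp from the start lay 33.9% of members (32.2 to 35.6) and 32.6% of thresholded peaks (29.9 to 35.4). The call within 100 bp was lost when starts up to 1000 bp away were admitted, with a difference of 1.75 points (Fisher's exact test, adjusted p = 0.197). Entries are not independent replicates, so these tests compare the 2 sets of places in 1 experiment.

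**Figure D2:**
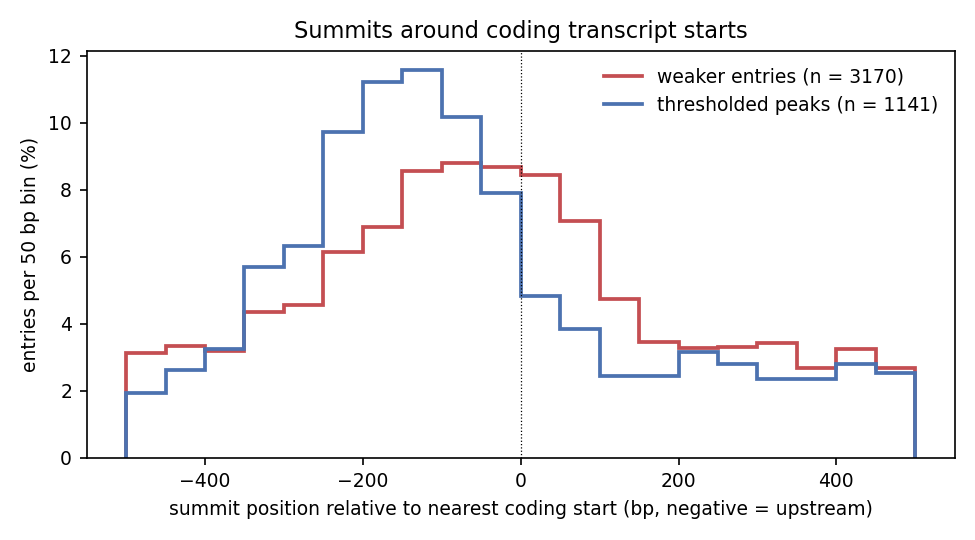
Percent of entries per 50 bp bin against the distance (bp) of the summit from the nearest coding start, negative upstream, for 3170 weaker entries and 1141 thresholded peaks. The weaker entries are spread around the start with a median of -46 bp, and the thresholded peaks gather upstream with a median of -112 bp.

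The remaining 9 features of the 11 did not pass the test, namely promoter layout and the chromosome arms. A start of another gene on the other strand within 1000 bp was found at 28.0% of members (26.5 to 29.6) and 29.8% of thresholded peaks (27.2 to 32.5). More than 1 cluster of starts within 500 bp was found at 26.7% and 29.4%, and a non-coding RNA start at 4.64% and 5.17%. The small chromosome 4 held 1 member and 3 thresholded peaks.

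By annotation, the summit fell in a 5′ untranslated region at 30.5% of members (28.9 to 32.1) and 23.0% of thresholded peaks (20.6 to 25.5). A coding exon held 7.19% (6.32 to 8.15) and 2.10% (1.35 to 3.11). Introns held 29.1% and 36.3%, and sequence between genes 29.9% and 36.1%. The interval of each of these shares at members does not meet that at thresholded peaks, and no test was run on them.

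Members held the C-rich words of thresholded peaks less often. The C run, 5 C in a row (CCCCC) or its reverse complement (GGGGG), was found in 14.6% of member windows (13.4 to 15.9) and 30.9% of thresholded windows (28.3 to 33.7), a difference of -16.33 points (Fisher's exact test, adjusted p = 9.4e-30 over 28 motifs). The C-rich word CCCACCCC was in 1.58% and 5.70% (Fisher's exact test, adjusted p = 5.8e-11). The CACCC box, which overlaps it, was in 17.1% and 27.4% (Fisher's exact test, adjusted p = 2.7e-12). The GAGA word GAGAG was in 19.5% and 30.7% (Fisher's exact test, adjusted p = 5.5e-13). All words were read on both strands.

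In total 5 of the 28 motifs (17.9%) were lower at members by this test and 1 (3.57%) was higher. The GC box CCGCCC was the weakest of the lower calls, in 5.87% of members and 8.15% of thresholded peaks (Fisher's exact test, adjusted p = 0.0456). The higher one was the GATA word GATAAG, in 6.37% and 4.29% (Fisher's exact test, adjusted p = 0.0456). The GATA call was lost in 9 of 10 other settings and the GC box call in 5 of 10, while the other 4 motifs passed in all 10. The 28 words include several that earlier results of these data had shown in thresholded peaks. The C-rich and GAGA differences are therefore not independent evidence about those words.

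Core promoter words did not pass the test between the sets. The DRE TATCGATA was in 1.04% of members and 1.75% of thresholded peaks (difference -0.71 points, Fisher's exact test, adjusted p = 0.233). Motif 1, GGTCACAC, was in 1.36% and 0.876% (difference 0.48 points, Fisher's exact test, adjusted p = 0.483). The TATA box TATAAA was in 9.72% and 9.73%, and the Initiator TCAGT in 17.3% and 14.5% (Fisher's exact test, adjusted p = 0.146). For scale, windows of the same length centred on all 19252 coding starts held the DRE at 4.48%, motif 1 at 4.68%, TATAAA at 15.5% and TCAGT at 31.7%, and the C run at 4.16%. Summits lie off the start, so these shares are not matched in position.

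**Figure D3:**
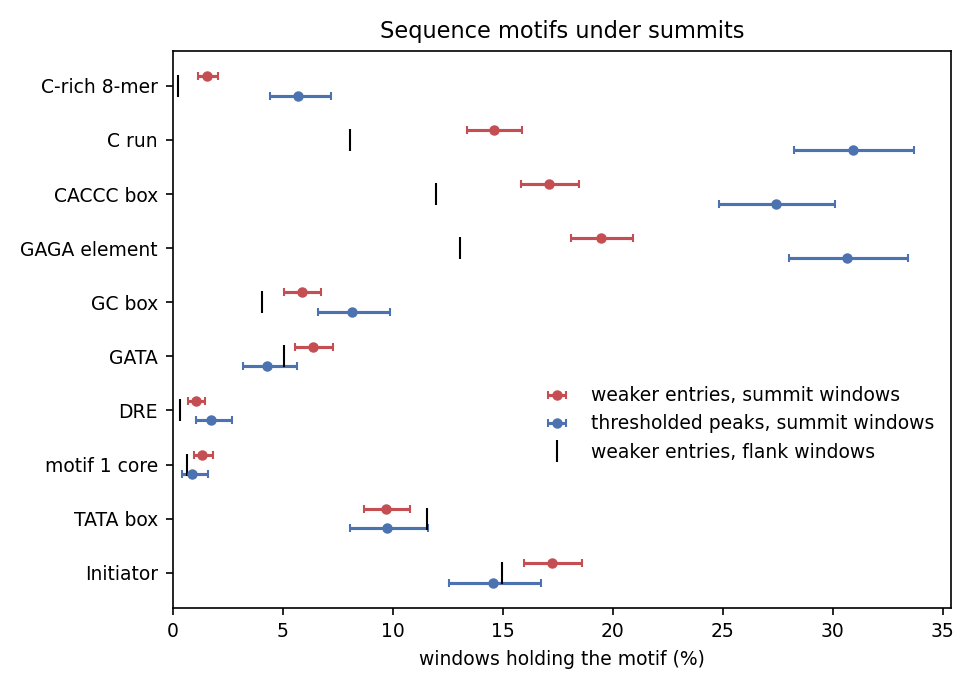
Percent of windows reaching 50 bp to either side of the summit that hold each of 10 motifs, with exact 95% intervals, under 3170 weaker summits and under 1141 thresholded summits; ticks give the windows flanking the weaker summits. The C run is at 14.6%, 30.9% and 8.04% in these 3 sets, and the GAGA word at 19.5%, 30.7% and 13.1%.

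The 8-mers gave the same kind of word. Among 639 words held by 1% or more of both sets of windows together, 68 (10.6%) were lower at members and 2 (0.313%) were higher. Of the 20 leading lower words, 13 had 6 or more C, or 6 or more G. The first was CCCCACCC, in 1.20% of members and 5.52% of thresholded peaks (Fisher's exact test, adjusted p = 1.2e-11), followed by CCCCCTCC, in 0.946% and 4.73%. The GA repeat AGAGAGAG was in 2.78% and 7.54% (Fisher's exact test, adjusted p = 4.7e-09). With no minimum, 40 of 32719 words (0.122%) were lower and 0 were higher. The higher pair, AAACAGAA and ATTTTGAA, each had an adjusted p of 0.710 there (Fisher's exact test) and is not read as a difference. A minimum of 1% in either set, the rule set at first, called 167 of 1184 words lower (14.1%) and 5 higher (0.422%), but it also made calls on simulated windows with no difference, since it admits words for being frequent in the smaller set. Its calls are not used.

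Within the members the C run and the GAGA word were more frequent at stronger entries, but not every lower word was. The C run was in 10.6% (8.28 to 13.2) of bin 1, the weakest of 5, and 18.5% (15.5 to 21.7) of bin 5, the strongest. The GAGA word was in 15.3% (12.6 to 18.3) and 26.0% (22.6 to 29.6). The share of summits upstream was 52.1% (48.1 to 56.0) and 65.6% (61.8 to 69.3). Neighbouring bins overlapped in their intervals for each of these 3 measures, and no trend test was run. The CACCC box was in 14.8% of bin 1 and 21.6% of bin 5. The GC box stayed level, at 5.99% and 6.15%. The C-rich word was uneven, at 0.789% in bin 1, 2.05% in bin 3, 0.946% in bin 4 and 2.84% in bin 5.

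**Figure D4:**
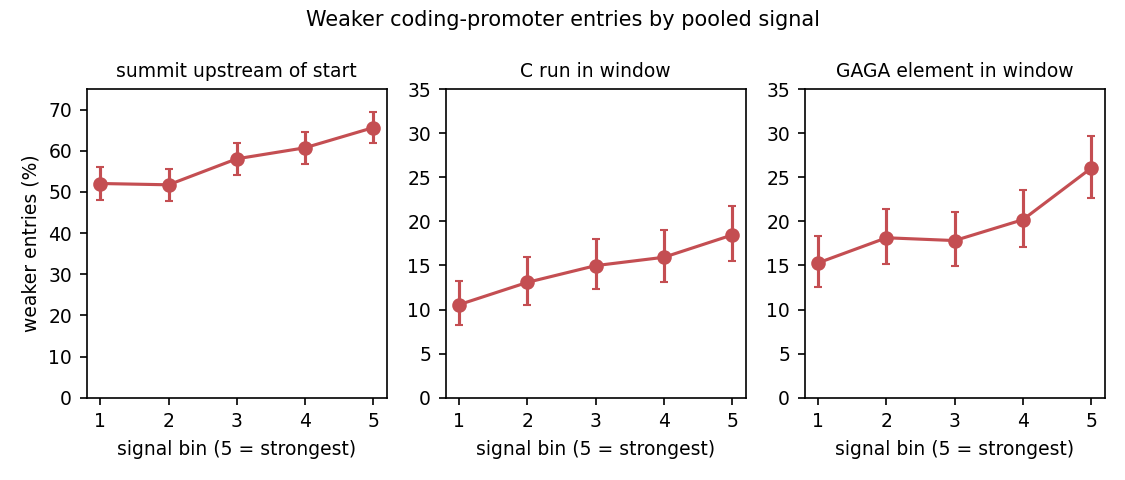
Percent of weaker coding-promoter entries, with exact 95% intervals, by bin of pooled signal (5 bins of 634 each), for summits upstream of the start, windows with a C run and windows with the GAGA word. Bins 1 and 5 lie at 52.1% and 65.6% for upstream summits, at 10.6% and 18.5% for the C run and at 15.3% and 26.0% for the GAGA word.

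Although lower than at thresholded peaks, these words were more frequent under member summits than beside them. The flank was a window of the same length centred 350 bp from the summit on the side away from the start. The C run was in 14.6% of summit windows and 8.04% of flank windows (exact McNemar test, adjusted p = 4.2e-15 over 28 motifs), the GAGA word in 19.5% and 13.1% (adjusted p = 3.5e-11), and the C-rich word in 1.58% and 0.252% (adjusted p = 1.1e-07). The DRE was in 1.04% and 0.315% (exact McNemar test, adjusted p = 0.00242), and motif 1 in 1.36% and 0.662% (adjusted p = 0.0200).

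In all, 12 of 28 motifs (42.9%) were higher at summits and 4 (14.3%) lower. The lower ones were TATAAA, with 9.72% at summits and 11.6% in flanks, and the Bicoid, STAT and nuclear receptor words. With the flank on the side of the start, 6 were higher and 1 lower: the C run and GAGA differences held there, while those of the DRE (0.35 points, exact McNemar test, adjusted p = 0.296) and motif 1 (0.13 points, adjusted p = 0.765) were lost, and the Initiator turned to -1.45 points (adjusted p = 0.260). The content of G and C was 45.8% ± 10.6 at summits and 42.6% ± 10.7 in flanks (SD over 3170 windows), and 47.1% ± 11.8 at thresholded summits (SD, 1141 windows). Its part in the word shares was not tested.

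The other 21398 weaker entries lie away from coding starts by the rule that chose the members, so promoter words can differ between these sets by that choice alone, and the shares are given with no test. The C run was in 14.6% of members (13.4 to 15.9) and 25.5% of the others (24.9 to 26.0). The GAGA word was in 19.5% (18.1 to 20.9) and 14.8% (14.3 to 15.3). The DRE was in 1.04% and 0.0794%, and motif 1 in 1.36% and 0.178%.

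The members matched in 1 replicate list alone are described by list, with no test, since each list is 1 library and the matches rest on the signal that chose the members. Summits lay upstream at 60.3% (57.2 to 63.3) of the 1028 found in replicate 1 only and 47.5% (43.7 to 51.4) of the 667 found in replicate 2 only. An opposite-strand start within 1000 bp was found at 34.0% and 21.9%, and more than 1 start cluster at 32.6% and 22.0%. TATAAA was in 12.8% (10.9 to 15.04) and 5.85% (4.19 to 7.91), and the homeobox word TAATTA in 6.81% and 3.00%. G and C content was 43.2% ± 11.1 in replicate 1 only and 47.9% ± 9.41 in replicate 2 only (SD over windows), and its part in these shares was not tested. Summits in coding exons were 5.93% (4.57 to 7.56) and 12.4% (10.03 to 15.2).

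Coding genes were classed by the entries near their starts. Of 13945 coding genes, 2332 (16.7%) had only weaker entries within 500 bp of a start, 1149 (8.24%) had a thresholded summit, and 10449 (74.9%) had no entry. A weaker entry was near 2598 genes in all, 266 of which also had a thresholded summit. The rule drops entries that overlap thresholded intervals, so this overlap is not read as a trait of the members. Of the members, 439 lay near the starts of 2 genes, and the nearest thresholded summit was a median of 8969 bp away, within 1000 bp for 7.41%.

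Genes with more transcript starts have more places to be counted, and this differed by class. More than 1 start was annotated for 43.4% of the genes with only weaker entries, 57.1% of those with a thresholded summit and 19.4% of those with no entry. The median gene length was 4220, 6247 and 1840 bp in the same order. The 5 genes with the most weaker entries, 6 each, were Pdk1, btsz, CG43867, Pde8 and grh. Their lengths ran between 16446 and 119759 bp. The part of gene length in the gene counts below was not tested.

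Gene lists were set beside the 16.7% of all coding genes, as counts with no test. The lists highest in genes with only weaker entries were of neurons and their precursors, embryonic patterning, EGFR and Notch signalling, and muscle. Neuron markers had 12 of 26 (46.2%, 26.6 to 66.6) and neural precursor regulators 11 of 27 (40.7%, 22.4 to 61.2). EGFR, Ras and AP-1 genes had 8 of 22 (36.4%, 17.2 to 59.3). Segmentation genes had 10 of 28 (35.7%, 18.6 to 55.9) and dorsoventral patterning genes 8 of 23 (34.8%, 16.4 to 57.3). Notch pathway genes had 7 of 22 (31.8%, 13.9 to 54.9) and muscle genes 9 of 29 (31.0%, 15.3 to 50.8). The dorsoventral, Notch and muscle intervals include the 16.7% of all coding genes. Thresholded summits were near a further 16 segmentation genes and 13 Notch pathway genes, which left 2 genes with no entry in each list. The lists are short and some genes stand in more than 1 of them. They were also chosen with earlier results of these data known. Their shares are therefore not independent evidence about these kinds of gene.

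Among neuron markers, Fas2, an axonal adhesion molecule, had a pooled signal of 137.9, with 55.4 in replicate 1 and 81.2 in replicate 2. The active zone scaffold brp had 127.0, with 59.5 and 65.0. Fas3, another adhesion molecule, had 92.3 and Syt1, the calcium sensor of synaptic vesicles, 86.9. Both of these were matched in replicate 1 alone, with 43.2 and 33.7. Summits lay 33 bp from the start of Fas2 and 42 bp from that of brp. Here and below, signals of different lists are on scales not shown to be equal, so near values do not show agreement.

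Among neural precursor regulators, brat had a pooled signal of 127.6, with 46.4 in replicate 1 and 102.2 in replicate 2. The epithelial and neuroblast factor grh had 126.5, with 65.0 and 72.2, and the Snail family factor wor had 124.5, with 46.5 and 72.4. The asymmetric division adaptor mira had 99.9, with 54.7 and 37.0. All 4 were found in both lists, as were 8 of the 11 genes of this list with only weaker entries.

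Segmentation genes included nkd, a Wnt antagonist, with a pooled signal of 138.1, the gap gene kni with 122.6, the ligand hh with 121.1 and its receptor ptc with 99.99. In replicates 1 and 2 the signals were 62.7 and 84.9 at nkd, 37.8 and 75.5 at kni, 57.5 and 66.3 at hh, and 54.3 and 58.5 at ptc. Among dorsoventral genes, twi, the mesoderm regulator, had a pooled signal of 107.8, with its summit 14 bp from the start, and all 8 genes of this list were matched in both lists by one entry or another. Of the 8 Hox genes, Antp with a pooled signal of 78.5 and Ubx with 77.2 had only weaker entries, and the other 6 had thresholded summits.

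In the Notch pathway, the ligand gene Ser had a pooled signal of 130.1, the glycosyltransferase gene fng 88.7, the coactivator gene mam 79.4 and the receptor gene N itself 73.9. N had 64.9 in replicate 2 and no match in replicate 1, and mam had 68.7 in replicate 1 and no match in replicate 2. The mam entry lay 457 bp from a start of mam, and a start of RN-tre was nearer. In the EGFR list, the adaptor gene drk had 115.8, the ligand genes Krn and vn 98.0 and 84.5, and the inhibitor gene aos 81.2. The nearest coding gene to the Krn entry was CG7484. In the muscle list, slou and ap, which specify muscle identity, had 127.7 and 126.2, Act57B, an actin gene, had 109.9 and nau, the MyoD relative, had 97.3.

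Lists of broadly used cell machinery lay on both sides of the 16.7% of all coding genes, mostly within counting error of it. Of those given next, only mitochondrial ribosomal protein genes had an interval (1.51 to 13.4) that excludes that share. Nuclear pore genes had 6 of 26 (23.1%), translation factors 11 of 52 (21.2%), vacuolar ATPase genes 6 of 33 (18.2%), spliceosome genes 6 of 35 (17.1%), cytosolic ribosomal protein genes 13 of 91 (14.3%), oxidative phosphorylation genes 12 of 86 (14.0%), proteasome genes 5 of 48 (10.4%), Mediator genes 2 of 29 (6.90%) and mitochondrial ribosomal protein genes 4 of 73 (5.48%). A thresholded summit was near 22 of the cytosolic ribosomal protein genes (24.2%). RpL17, with only weaker entries, had 68.7 (rank 5132) in replicate 1 and 69.1 (rank 3909) in replicate 2. No proteasome gene had a thresholded summit, and of the 5 with weaker entries 4 were matched in replicate 1 and 0 in replicate 2, among them Rpn11 with 75.3 and Rpn6 with 72.8.

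Several lists of late or tissue-limited genes were also low, as mitochondrial ribosomal protein genes were, unlike the neuron marker and muscle lists above. Chemoreceptor and odorant binding genes had 13 of 231 (5.63%, 3.03 to 9.43) and detoxification genes 12 of 154 (7.79%, 4.09 to 13.2). Cuticle protein genes had 3 of 120 (2.50%, 0.519 to 7.13) and seminal fluid protein genes 1 of 46 (2.17%, 0.0550 to 11.5). The replication-dependent histones had 0 of 111, for which the interval runs up to 3.27%. These are nearly identical repeated copies, so this count is uncertain. The ecdysone response list had 1 of 14 (7.14%, 0.181 to 33.9), the receptor gene Hr4, and 9 of its genes had thresholded summits. Its interval includes the 16.7% of all coding genes.

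**Figure D5:**
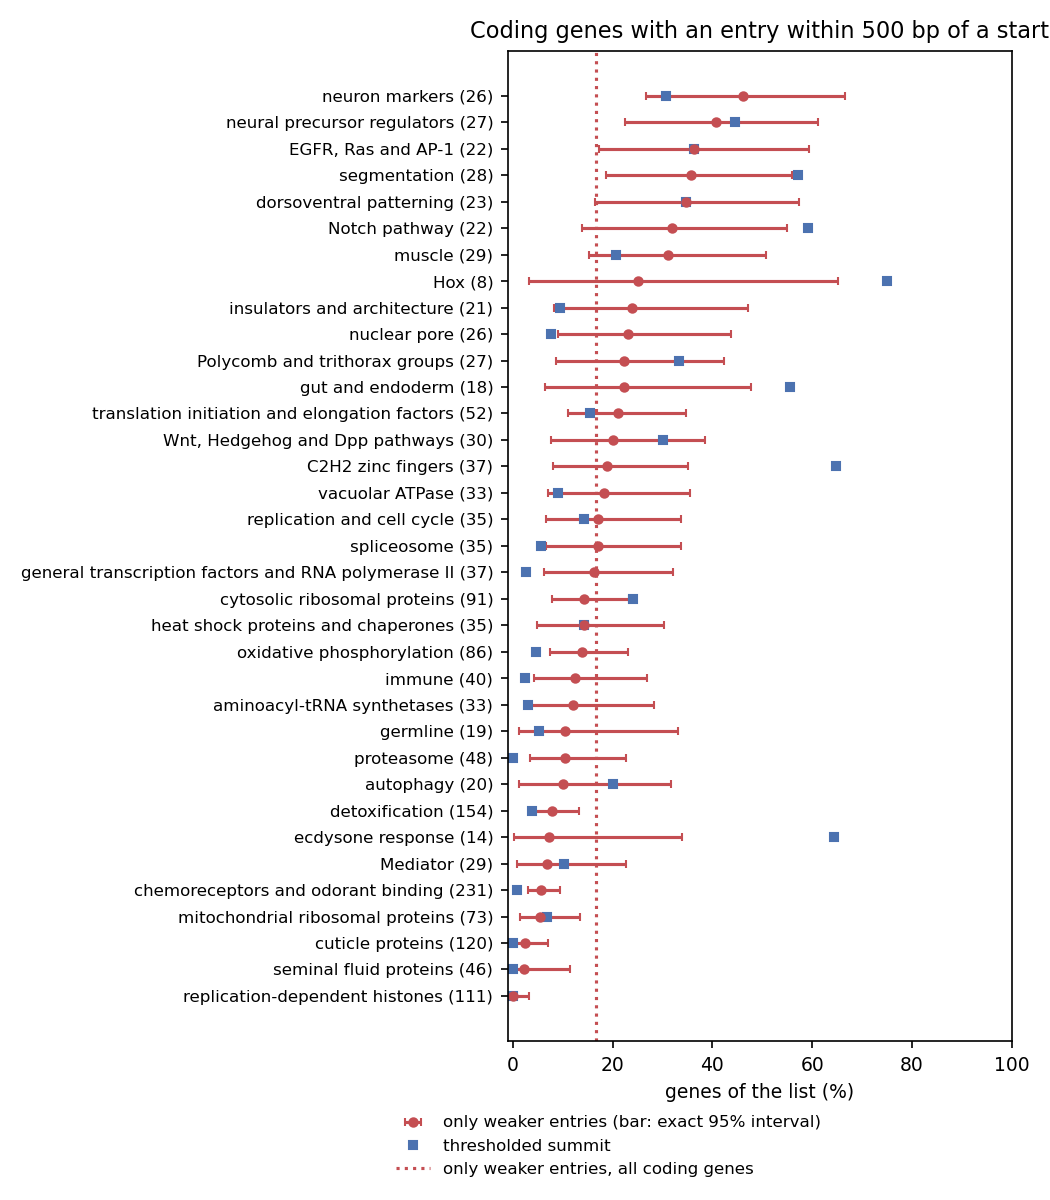
Percent of the genes of each of 35 lists with only weaker entries near a start (circles, exact 95% interval) and with a thresholded summit (squares); list sizes are in parentheses and the dotted line is the 16.7% of all coding genes. Neuron markers lie at 46.2% and replication-dependent histones at 0%.

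Weaker entries were also taken from each replicate's own list. Neuron markers had 13 of 26 in replicate 1 and 11 of 26 (42.3%) in replicate 2, beside 20.3% and 16.1% of all coding genes. Segmentation genes had 39.3% and 35.7%, and muscle genes 41.4% and 27.6%. Cytosolic ribosomal protein genes had 28.6% in replicate 1 and 19.8% in replicate 2, and proteasome genes 18.8% and 2.08%. The lists share the thresholded peaks, which came from both replicates.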

How the data were processed

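The deposited files are peak lists of the series on builds dm6 and dm3. The members, gene lists and motifs were chosen with earlier results of these data known. Per the file descriptions deposited with them, each replicate list was made from its alignments and a control, the pooled list from both replicates, and the thresholded list by the IDR procedure. For the peak caller and the IDR cutoff, nothing is given in the sources used here. The authors deposited for each entry a signal value, a −log10 q-value and a summit offset. The signal ranked entries within a list, the −log10 q-value deposited by the authors was only listed, and the summit placed the entry. Read counts were not analysed here, so depth is unknown.

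Summits on dm6 were compared with Ensembl release 115 on 6 chromosome arms, where chromosome names and ends fitted the reference genome. Windows reaching 50 bp to either side of the summit were searched for 28 motifs and all 8-mers on both strands. Shares were compared with two-sided Fisher's exact tests, and summits with flanks by exact McNemar tests, with Benjamini-Hochberg adjustment and a threshold of 0.05. The 8-mer minimum was changed after a test on simulated data. Intervals are exact binomial at 95%. Python 3.11.15, numpy 2.4.6, pandas 2.3.3 and scipy 1.17.1 were used. Of the gene list names, 12 were matched by older symbols and 8 were not found.

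Named genes are the 20 strongest members, the 5 entries on either side of the threshold, up to 4 genes a list with only weaker entries, the 5 genes with most entries and the 5 best ranked members of each replicate list. Sequences are of the strongest member with each motif, outside annotated untranslated regions and outside chromosome arm 2R. Alternatives were the distance to the start, the window, the flank, the match distance, only the stronger weaker entries (those at or above their median signal), isolation from thresholded summits, 1 entry per start cluster, the dm3 lists and each replicate's own list.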

Additional observations from a re-analysis of the deposited data

How the results depend on the processing

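The count of weaker entries at coding promoters was 2096 with starts within 250 bp, 4907 within 1000 bp and 1911 with only the weaker entries above their median signal, and lay between 3028 and 3631 with each replicate's own list. Genes with only weaker entries stayed within 1.5 times of 2332 in all 7 settings. The 5 lower motifs numbered 4 to 6 in all 10 settings, whereas the higher ones, 1 in the main comparison, numbered 2 at 1000 bp (the A run and the Initiator, without the GATA word), 1 in replicate 1's own list and 0 at 250 bp, without thresholded summits within 1000 bp, with the nearest start of any gene coding, above the median signal, with 1 entry per start cluster, with windows reaching 25 and 100 bp from the summit and in replicate 2's own list. Lower 8-mers numbered 167 as first set, 68 with the minimum over both sets and 40 with none, and higher ones 5, 2 and 0, with 3 at 1 entry per start cluster, where 143 were lower. Against flanks, windows reaching 25 bp from the summit left 1 motif lower at summits, and the flank on the side of the start left 6 higher and 1 lower, with the Initiator at -1.45 points; the cause was not tested. The share of members in both replicate lists was 22.0% within 50 bp, 49.8% within 200 bp, 63.3% by interval overlap and 17.4% among the strongest 15000 entries. The minimum over both sets and its absence were chosen after seeing the data. On dm3, 23920 entries were weaker, against 24568 on dm6. Of 488 single values under other settings, 427 kept their side of the threshold and 1 was reversed. A call was lost in 34 and gained in 18. The last 8, shares matched in replicate 1 or in replicate 2, left the interval of the main setting. The 427 include many differences that passed in neither setting, so they are not a count of calls that held. Among the 427, a difference that passed in neither setting could change sign. TATAAA, for example, stood at -0.01 points in the main comparison and 1.70 points in replicate 1's own list. Unknown depth, 1 group and no untagged embryos limit what any entry can show.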

Other observations

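Some members stood in long genes with many starts. CG43867, a gene of 119759 bp, had 6 weaker entries and no thresholded summit near a start, and its strongest weaker entry had a pooled signal of 132.1, with 38.9 in replicate 1 and 94.7 in replicate 2. btsz, which encodes a synaptotagmin-like protein, spans 71397 bp and also had 6, the strongest with a pooled signal of 138.3, and with 71.0 in replicate 1 and 64.5 in replicate 2.

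Promoter sequence between 250 bp before and 50 bp after a coding gene's start held the GAGA word at 39.3% (37.3 to 41.3) of the 2332 genes with only weaker entries, 46.2% (43.3 to 49.1) of the 1149 with a thresholded summit and 26.5% (25.7 to 27.4) of 10448 with no entry. The C run was at 17.8%, 25.1% and 11.2% in the same order. TATAAA was at 35.8%, 34.9% and 48.6%. These shares were not tested.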
